A study of Mus musculus with 6 samples.

Results

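The 31 genes described here carry glucose into the cell, take it through glycolysis to pyruvate, and exchange pyruvate with lactate, or set the pace of these steps. They were taken by name from the 46078 gene features of the count tables, all 31 were present, and the features with exons on the other strand of theirs were added. Of the 31 genes, 12 had such exons opposite to them, and 11 of those opposite features were in the tables. The libraries were made from heart muscle cells isolated by perfusion, with 3 libraries labelled Acly-KD and 3 labelled control, whose genotype is given as wildtype. Acly encodes ATP citrate lyase, which makes cytosolic acetyl-CoA from citrate, and the study asked what the heart's cells express when it is knocked down. The knockdown used MyH6-Cas9 mice, in which the Myh6 promoter, a promoter of heart muscle cells, is named with Cas9. The labels give neither an age nor whether the control mice carried Cas9, and they do not say that each library came from its own animal. A p-value here thus reflects how far these libraries scatter, and part of that scatter may be technical.

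Glucose enters heart muscle cells through the transporters GLUT1 and GLUT4, is phosphorylated by hexokinase, and is turned through a chain of enzymes into pyruvate. Phosphofructokinase is the main control point of that chain, and it is set in part by fructose 2,6-bisphosphate, which the Pfkfb enzymes make and remove. Citrate, the substrate of ATP citrate lyase, is a known inhibitor of phosphofructokinase. Lactate dehydrogenase converts pyruvate to lactate and back, and monocarboxylate transporters carry lactate across the cell membrane. The adult heart burns mostly fatty acids and also takes up and oxidizes lactate.

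Depth and strand limit every value below. Between 271463 and 814765 reads per library fell in features, which is 2.81% to 3.07% of the uniquely aligned reads. The counts look as if each read had been booked on the wrong strand: 8121 of 45106 nuclear features face another gene's exons, and these took 91.9% of the nuclear reads. A count at a gene's own locus is then a read of the other strand, called an own-locus read here, and its messenger RNA can be seen only where an annotated feature lies opposite to it. Acly itself had 0, 0 and 0 own-locus reads in Acly-KD 1 to 3 and 1, 5 and 6 in control 1 to 3. Own-locus reads were found for 12 of 12 heart muscle markers, which summed to 16029 to 19524 CPM (reads per 1000000, normalized between libraries) in control and 6543 to 19593 CPM in Acly-KD. The endothelial list (7 of 7 with reads) summed to 27.3 to 58.0 CPM in control and 19.5 to 76.2 CPM in Acly-KD, and the fibroblast list (7 of 7) to 12.9 to 26.0 and 16.9 to 26.9 CPM. Pericyte and smooth muscle markers (6 of 6) summed to 91.0 to 104 and 41.5 to 120 CPM. Leukocyte markers (4 of 6, with Ptprc and Adgre1 at 0) summed to 87.4 to 122 and 75.7 to 96.7 CPM, and red cell markers (5 of 6, with Slc4a1 at 0) to 12.9 to 31.9 and 7.68 to 22.0 CPM. Most leukocyte reads were of Csf1r alone, at 63, 31 and 67 in Acly-KD 1 to 3 and 17, 68 and 79 in control 1 to 3. The 3 fat cell markers Adipoq, Plin1 and Cidec were at 0. The part of these cell types in the results was not tested, and in bulk RNA fewer cells of a type and less RNA per cell cannot be told apart.

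Where and how far a gene shares bases with an opposite feature decides whether its messenger can be read at all, so a shared stretch is shown for Gpi1, which could be read, and for Aldoa, which could not. Each is written 5′ to 3′ along the gene's own messenger, from the GENCODE M21 transcripts on mm10, with the bases shared with the opposite feature in capitals. Gpi1 is shown with 15 bases of the neighbouring exons on each side in lower case.
Gpi1 exon 4, chr7:34227118-34227237, minus strand, opposite to Gm26762: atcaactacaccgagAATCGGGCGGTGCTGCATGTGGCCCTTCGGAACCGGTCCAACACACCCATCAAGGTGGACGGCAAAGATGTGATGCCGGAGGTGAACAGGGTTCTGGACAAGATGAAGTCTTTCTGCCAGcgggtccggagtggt
Aldoa exon 3, chr7:126797644-126797776, minus strand, opposite to Fam57b: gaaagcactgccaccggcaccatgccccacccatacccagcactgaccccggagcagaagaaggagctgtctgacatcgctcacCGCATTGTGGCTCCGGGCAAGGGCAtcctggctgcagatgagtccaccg
The coding exon of Gpi1 is shared over its whole length, 120 bases. The Aldoa exon shares only 25 of its 133 bases, and Fam57b held 0, 0 and 0 reads in Acly-KD 1 to 3 and 1, 1 and 0 in control 1 to 3. The Aldoa messenger was therefore not read through Fam57b.

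**Figure D1:**
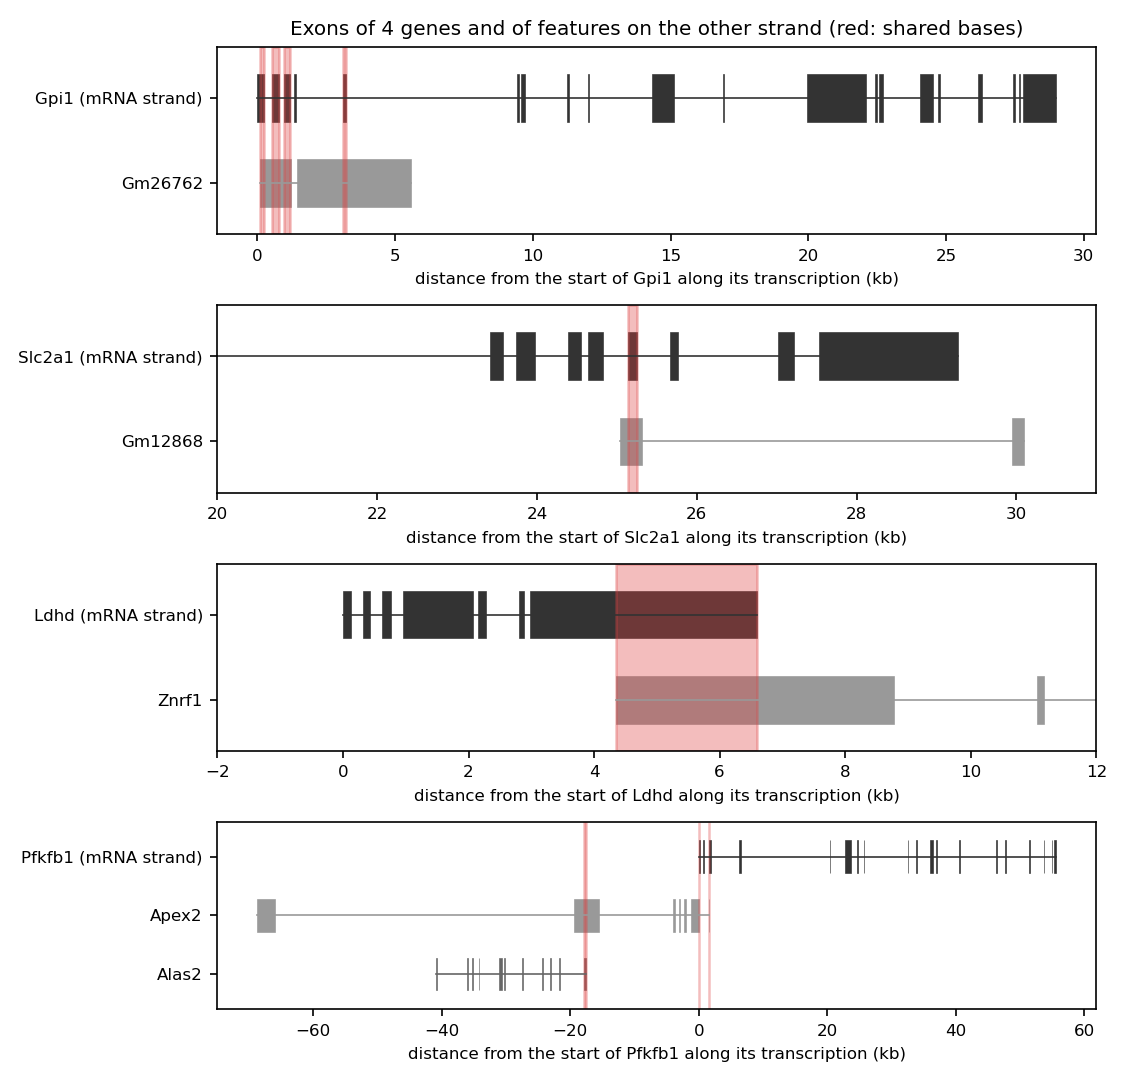
Exons (boxes) of Gpi1, Slc2a1, Ldhd and Pfkfb1 and of the features on the other strand, against the distance in kb from the start of each gene along its own transcription. Red bands mark shared bases: 741 for Gpi1, 105 for Slc2a1, 2246 for Ldhd, and 123 for Pfkfb1 against 311 for Alas2, which also lies opposite to Apex2; Slc2a1 is cut to its last part and Znrf1 runs on beyond the panel.

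For glucose transport, only GLUT1 had an opposite feature, and it shares a single stretch with the gene. Slc2a1 (chromosome 4, 119108711 to 119137983, plus strand), which encodes GLUT1, held 0, 0 and 3 own-locus reads in Acly-KD 1 to 3 and 0, 1 and 0 in control 1 to 3. The opposite feature Gm12868, an antisense RNA gene, held 41, 17 and 31 reads in Acly-KD 1 to 3 and 8, 68 and 41 in control 1 to 3. Of the 417 exonic bases of Gm12868 only 105 are shared with Slc2a1 exons, and the feature reaches beyond the end of Slc2a1. Reads of spliced Slc2a1 and of other RNA opposite to Gm12868 cannot be told apart. As a deposited row, Gm12868 was also tested on its own. Its normalized values were 62.9, 41.5 and 38.7 CPM in Acly-KD and 29.1, 80.5 and 59.0 CPM in control. The control libraries held both the lowest and the highest value, so the groups overlapped. The log2 fold change of Gm12868, always Acly-KD over control, was -0.30 (SE 0.37, 95% interval -1.10 to 0.49), with an adjusted p of 0.964 in edgeR. To read messenger RNA, the counts of an opposite feature were given to the gene it faces and tested among all genes read that way, which is called the reading of mRNA below. In it Slc2a1 had a log2 fold change of -0.36 (SE 0.33, 95% interval -1.04 to 0.32, adjusted p = 0.821 in edgeR), and of 0.0095 without control 2. Slc2a4, which encodes the insulin-responsive GLUT4, has no exon opposite to it. Its own-locus reads numbered 4, 6 and 20 in Acly-KD 1 to 3 and 2, 24 and 8 in control 1 to 3, too few to be tested, and the groups overlapped.

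Among the hexokinases, Hk2, the insulin-regulated form of muscle, held 8, 4 and 25 own-locus reads in Acly-KD 1 to 3 and 8, 25 and 18 in control 1 to 3. Hk1, the form found in most tissues, held 3, 6 and 9 against 6, 11 and 3. The groups overlapped for both genes. Hk1os, the antisense gene that shares 157 bases with Hk1, held at most 2 reads in a library. In the reading of mRNA the reads of the Hk1 row went to Hk1os. The Hk2 messenger has no annotated feature opposite to it and could not be read at any depth, and that of Hk1 was not measurable through Hk1os at this depth.

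Gpi1 was the member with the most reads opposite to it, and these reads did not differ between the groups beyond the spread of the libraries. Gpi1 (chromosome 7, 34201330 to 34230336, minus strand) encodes glucose-6-phosphate isomerase, the enzyme that turns glucose 6-phosphate into fructose 6-phosphate. Gm26762, a long non-coding RNA gene that shares 741 bases with Gpi1 exons in 4 stretches, 333 of them coding, held 2418, 1399 and 2661 reads in Acly-KD 1 to 3 and 925, 2751 and 2479 in control 1 to 3. In the reading of mRNA this gave Gpi1 6753, 6377 and 6726 CPM in Acly-KD 1 to 3 and 6580, 6388 and 6759 CPM in control 1 to 3. All 6 libraries lay close together, and the groups overlapped. The mean was 6576 ± 185 CPM in control and 6619 ± 209 CPM in Acly-KD (SD, n = 3 each). The log2 fold change was 0.01 (SE 0.11, adjusted p = 0.984 in edgeR), and its 95% interval ran from -0.21 to 0.23. As a deposited row of its own, Gm26762 had a log2 fold change of 0.04 (SE 0.12, 95% interval -0.23 to 0.30). Gm26762 has 5284 exonic bases, most of which face introns of Gpi1, and reads of spliced Gpi1, of unspliced Gpi1 and of RNA antisense to Gm26762 cannot be told apart.

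The other strand of the same gene gave a different picture across libraries. Own-locus reads of Gpi1 numbered 6, 12 and 45 in Acly-KD 1 to 3 and 13, 43 and 33 in control 1 to 3. As a share of all Gpi1 and Gm26762 reads they made up 0.248%, 0.850% and 1.66% in Acly-KD 1 to 3 and 1.39%, 1.54% and 1.31% in control 1 to 3. Acly-KD 1 stood apart, with a 95% Wilson interval of 0.113% to 0.539% that did not reach the interval of Acly-KD 3 (1.25% to 2.22%) or of any control. Acly-KD 2 (0.487% to 1.48%) overlapped the controls, whose intervals spanned 0.812% to 2.36%. These intervals cover counting error only. Reads were not marked by molecule, so repeated reads of the same molecule may make the intervals too narrow. The share was 1.41 ± 0.115% in control and 0.920 ± 0.710% in Acly-KD (SD, n = 3 each), and a two-sided exact permutation test over libraries gave p = 0.4, where 0.1 is the smallest that 3 against 3 allow.

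At phosphofructokinase, own-locus reads were more for the muscle subunit than for the liver subunit. Pfkm, the muscle form, held 9, 16 and 52 reads in Acly-KD 1 to 3 and 7, 55 and 26 in control 1 to 3, and Pfkl, the liver form, 0, 2 and 3 against 0, 7 and 2. Pfkm shares 341 bases on its own strand with Gm26513, and reads in such a stretch may not be given to either gene. Pfkp, the platelet form (chromosome 13, 6579768 to 6648777, minus strand), had more reads than either, 171, 94 and 153 in Acly-KD 1 to 3 and 33, 147 and 136 in control 1 to 3. Its end shares 748 bases with the end of Pitrm1, a mitochondrial peptidase gene that converges on it, and by the same logic these reads belong to Pitrm1. The reads counted at Pitrm1, where the Pfkp messenger would be seen, numbered 4, 1 and 5 in Acly-KD 1 to 3 and 1, 4 and 2 in control 1 to 3. The Pfkp row was at 263, 230 and 191 CPM in Acly-KD 1 to 3 and 120, 174 and 196 CPM in control 1 to 3. The lowest Acly-KD value lay below the highest control value, so the groups overlapped, with a log2 fold change of 0.45 (SE 0.21, 95% interval -0.01 to 0.90, adjusted p = 0.838 in edgeR). This value describes the Pfkp row and not the Pfkp messenger. In the reading of mRNA, whose libraries are scaled by other reads, the same counts stood for Pitrm1 at 478, 428 and 387 CPM in Acly-KD 1 to 3 and 235, 341 and 371 CPM in control 1 to 3. There the groups did not overlap, and the difference of 0.41 on the log2 scale (SE 0.19, 95% interval 0.02 to 0.79, unadjusted p = 0.0403, adjusted p = 0.514 in edgeR) did not pass the test. The groups were thus apart in that scaling and not in the deposited one. They were apart for 8.12% of all genes in this direction, and 125 of the 1453 genes had an unadjusted p under 0.05 in edgeR.

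The regulators of phosphofructokinase were seen weakly. Pfkfb1 (X chromosome, 150588229 to 150643878, plus strand), which encodes the liver and muscle form of the enzyme that makes and removes fructose 2,6-bisphosphate, shares 123 bases with exons of Apex2, a DNA repair gene. Apex2 also shares 311 bases with Alas2, the heme synthesis enzyme of red cell precursors, so that only 28.3% of its opposite bases belong to Pfkfb1 and its reads were given to neither gene. Apex2 held 95, 101 and 53 reads in Acly-KD 1 to 3 and 54, 116 and 99 in control 1 to 3, or 146, 247 and 66.2 CPM against 197, 137 and 142 CPM. Acly-KD 2 was the highest and Acly-KD 3 the lowest of the 6 libraries. The log2 fold change was -0.07 (SE 0.43, 95% interval -1.07 to 0.93, adjusted p = 0.982 in edgeR). With Acly-KD 1 and Acly-KD 2 both left out, Apex2 was called lower in the remaining Acly-KD library, at -1.22 (adjusted p = 0.0377 in edgeR), in a fit that called 0.649% of its features lower and 0.25% higher and takes the lone library to vary like the controls. Without Acly-KD 3 the value was 0.37. Alas2 had 1 to 3 own-locus reads in each library.

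Own-locus reads of Pfkfb1 itself numbered 8, 8 and 24 in Acly-KD 1 to 3 and 8, 28 and 27 in control 1 to 3. Pfkfb2, the heart form, held 6, 12 and 7 against 3, 16 and 16, and Yod1, with 154 bases opposite to it, held at most 3 reads. The reads of the Pfkfb2 row went to Yod1 in the reading of mRNA. Pfkfb3, the inducible form, had 2 reads in Acly-KD 1 and 0 elsewhere, and Pfkfb4 1 read in each of control 2 and control 3. Fbp2, the muscle fructose-1,6-bisphosphatase that runs the step backwards, held 0 to 4 reads per library. The groups overlapped for each of these genes.

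The enzymes from aldolase to pyruvate kinase have little or no opposite exon, and they were seen almost only as own-locus reads. Aldoa, the aldolase of muscle (chromosome 7, 126795234 to 126800751), held 63, 67 and 269 reads in Acly-KD 1 to 3 and 76, 199 and 156 in control 1 to 3. In normalized terms this was 96.7, 164 and 336 CPM against 277, 235 and 224 CPM. Acly-KD 1 and 2 lay below all controls and Acly-KD 3 above all of them. The log2 fold change was -0.27 (SE 0.41, adjusted p = 0.965 in edgeR), and 0.075 without Acly-KD 1.

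The same order of libraries recurred down the pathway. Gapdh, which encodes the dehydrogenase that makes the first NADH of glycolysis, read 58.3, 137 and 215 CPM in Acly-KD 1 to 3 and 157, 162 and 127 CPM in control 1 to 3. The reading of mRNA gave the reads of this row to Iffo1, so these values need not describe Gapdh. Tpi1, triose phosphate isomerase, read 23.0, 24.4 and 85.0 CPM against 87.4, 95.8 and 57.5 CPM. Eno3, the muscle enolase, read 10.7, 14.7 and 77.5 CPM against 87.4, 78.1 and 46.0 CPM. Acly-KD 3 lay among or above the controls for each of the 3 genes, and Acly-KD 1 below all controls. The log2 fold changes were -0.10 for Gapdh (SE 0.40, adjusted p = 0.976 in edgeR), -0.79 for Tpi1 (SE 0.47, adjusted p = 0.906 in edgeR) and -0.92 for Eno3 (SE 0.68, adjusted p = 0.935 in edgeR). Pgam2, the muscle phosphoglycerate mutase, held 12, 15 and 41 reads in Acly-KD 1 to 3 and 13, 62 and 27 in control 1 to 3. Pkm, the pyruvate kinase of muscle, held 12, 10 and 43 against 19, 49 and 27, and shares 767 bases on its own strand with Gm49759. Pgk1, Pgam1, Eno1, Eno2 and Bpgm were near the floor, with 0 to 7 reads in any library. Gapdh, Pgk1, Pgam1, Eno1 and Ldha have processed copies elsewhere in the genome, and reads that aligned to more than one place were not given to a gene, so their counts are uncertain.

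Opposite features added nothing for these enzymes. Iffo1, with 68 bases opposite to Gapdh, held at most 1 read per library, and Spsb2, with 34 bases opposite to Tpi1, held 6, 1 and 5 reads in Acly-KD 1 to 3 and 2, 6 and 1 in control 1 to 3.

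In lactate metabolism, Ldhb, the heart subunit of lactate dehydrogenase (chromosome 6, 142490249 to 142507957), held 12, 18 and 108 own-locus reads in Acly-KD 1 to 3 and 23, 82 and 52 in control 1 to 3. It read 18.4, 44.0 and 135 CPM against 83.7, 97.0 and 74.8 CPM, again with Acly-KD 1 and 2 below and Acly-KD 3 above every control. Its log2 fold change was -0.33 (SE 0.62, adjusted p = 0.965 in edgeR), and 0.13 without Acly-KD 1. Ldha, the subunit that predominates in skeletal muscle, held 2, 2 and 13 reads in Acly-KD 1 to 3 and 4, 13 and 6 in control 1 to 3.

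Ldhd, the mitochondrial D-lactate dehydrogenase (chromosome 8, 111623785 to 111630374, minus strand), is the member with the longest shared stretch. Its last 2246 bases lie opposite to the end of Znrf1, a ubiquitin ligase gene that converges on it. The Znrf1 messenger would thus be counted at Ldhd. Of the 2246 bases, 0 lie in annotated coding or untranslated stretches of Ldhd, so Znrf1 reads would not show the coding Ldhd messenger. Znrf1 held 102, 93 and 124 reads in Acly-KD 1 to 3 and 32, 118 and 111 in control 1 to 3. It read 157, 227 and 155 CPM against 117, 140 and 160 CPM, with 1 control above 2 of the Acly-KD libraries. The log2 fold change was 0.34 (SE 0.22, 95% interval -0.13 to 0.81, adjusted p = 0.906 in edgeR). The Ldhd row read 127, 249 and 211 CPM in Acly-KD 1 to 3 and 69.2, 167 and 210 CPM in control 1 to 3, with a log2 fold change of 0.33 (SE 0.36, 95% interval -0.49 to 1.14, adjusted p = 0.961 in edgeR). The 2 rows held similar totals, 580 reads for Znrf1 and 660 for Ldhd, and the rule of the reading of mRNA gave Ldhd no value, since it asks for the opposite feature to have more reads than the gene's own locus.

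Of the lactate and pyruvate transporters, Slc16a1, which encodes MCT1, the main carrier of the heart, held 21, 11 and 42 own-locus reads in Acly-KD 1 to 3 and 19, 34 and 45 in control 1 to 3. Slc16a3, which encodes the lactate exporter MCT4, held 8, 9 and 10 against 0, 22 and 14. Slc16a7, which encodes MCT2, had 1 read in all. The groups overlapped for each of them.

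**Figure D2:**
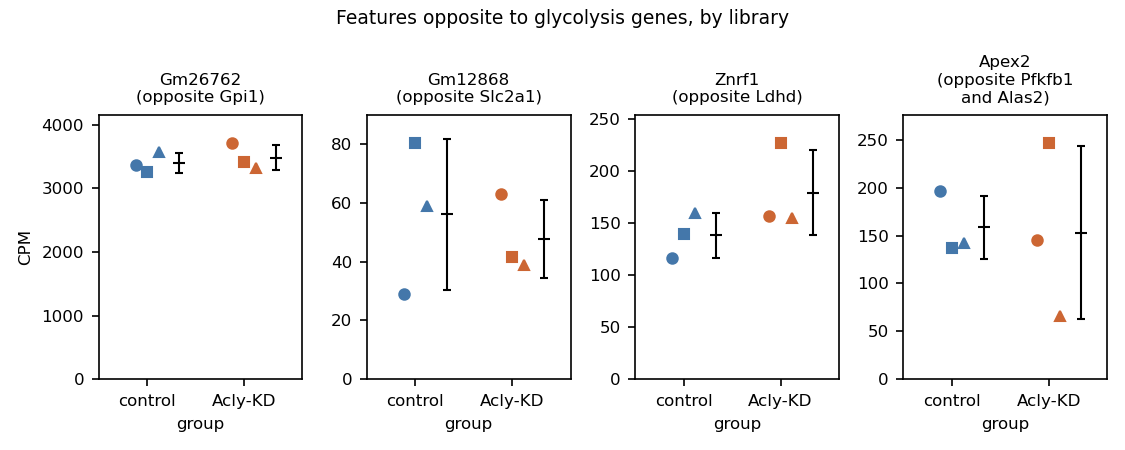
CPM of the 4 tested features opposite to glucose and lactate genes in each library, on axes that start at 0 (circle, square and triangle: replicates 1, 2 and 3; black bars: mean ± SD, n = 3). The 2 groups overlap for all 4, most tightly for Gm26762, at 3255 to 3712 CPM.

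Over the 31 genes, the test called no difference in either form of the counts. At their own loci 17 passed the filter on low counts and 14 did not, among them Aldoc, at 0 in every library, which allows up to 3.55 to 10.9 CPM depending on the library. Of the 17, 0 were called higher and 0 lower by edgeR, 0 had an unadjusted p under 0.05, and DESeq2 and limma-voom with quality weights also called 0. Among all 2952 features tested, edgeR called 0%, with 180 at an unadjusted p under 0.05. The groups did not overlap for 0 of the 17, against 11.4% of all features (5.83% with Acly-KD higher and 5.56% with it lower). Of the 4 opposite features tested as deposited, 0 were called by edgeR, DESeq2 or limma-voom, 0 had an unadjusted p under 0.05, and 0 had groups apart. In the reading of mRNA Gpi1 and Slc2a1 were tested, and 0 of these 2 were called by any of the 3 tools, where edgeR called 0.413% of 1453 genes, and 0 had an unadjusted p under 0.05. Their groups overlapped, while groups were apart for 14.7% of the genes, 8.12% with Acly-KD higher and 6.61% with it lower. Of the features opposite to listed genes, Pitrm1, Znrf1, Iffo1 and Yod1 were also tested in the reading of mRNA, through the rows of Pfkp, Ldhd, Gapdh and Pfkfb2. Of these 4, 0 were called by edgeR, DESeq2 or limma-voom, and 1, Pitrm1, had an unadjusted p under 0.05 in edgeR and groups apart. Among all 1453 genes of that fit, 125 had an unadjusted p under 0.05 in edgeR. The intervals differ widely in what they leave possible: the bounds for Gpi1 lie within -0.21 and 0.23, while those for Eno3 at its own locus run from -2.50 to 0.66.

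The own-locus values leaned one way all the same. Of the 17 genes 15 lay below zero and the median of their log2 fold changes was -0.54, while 54.4% of all 2952 features lay below zero and their median was -0.04. The exceptions were Pfkp and Ldhd. Both end opposite to a converging neighbour, over 748 shared bases for Pfkp and 2246 for Ldhd. Gapdh and Tpi1 also do, over 68 and 34 bases, and lay below zero at -0.10 and -0.79. The part of these overlaps in the values was not tested. The lean was not shared by the 3 Acly-KD libraries. Against the mean of the controls, on the log2(CPM + 1) scale, the median of the 17 genes was -1.38 in Acly-KD 1, -0.71 in Acly-KD 2 and 0.21 in Acly-KD 3, where the controls spanned -0.12 to 0.16. Below the control mean lay 15, 13 and 5 of the 17 genes in Acly-KD 1 to 3 and 9, 3 and 11 in control 1 to 3.

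**Figure D3:**
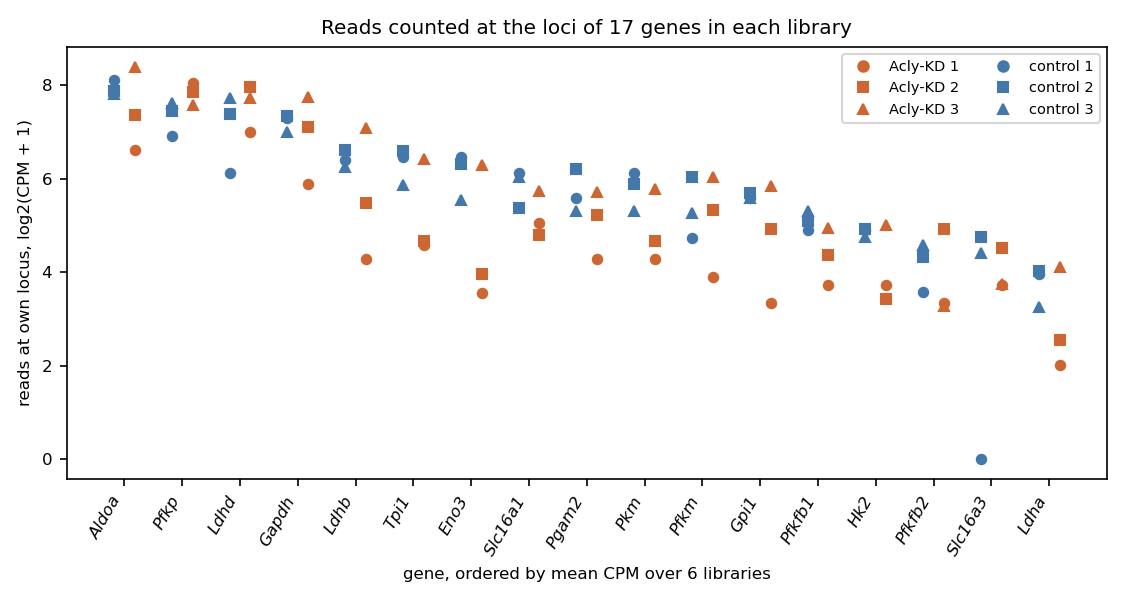
Own-locus reads, as log2(CPM + 1), of the 17 tested genes in each library (blue: control, orange: Acly-KD; circle, square and triangle: replicates 1, 2 and 3). Acly-KD 1 lies below the control mean for 15 of the 17 genes and Acly-KD 3 for 5; the point at 0 is Slc16a3 in control 1.

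Measures of the whole library moved in the same order. Features with fewer than 50 bases of opposite exon, where few messenger reads can be counted if strands are swapped, took 5.94%, 7.99% and 11.4% of the nuclear reads in Acly-KD 1 to 3 and 10.1%, 10.1% and 8.81% in control 1 to 3. The 22 listed genes of this kind held 6.70, 7.99 and 13.0 of every 1000 such reads in Acly-KD 1 to 3 and 11.7, 12.3 and 10.5 in control 1 to 3. Acly-KD 1 and 2 were thus lowest on both measures and Acly-KD 3 highest. In a fit of such features alone, which was added once the data had been seen, edgeR called 0 of 638 features. The median of the 10 listed genes that passed the filter was -0.34. The median over the 638 features was not taken, so whether the listed genes differ from the others of this kind was not tested. The 12 heart muscle markers at their own loci moved in the same order, at 6543, 12541 and 19593 CPM in Acly-KD 1 to 3 and 19524, 18247 and 16029 CPM in control 1 to 3. In the reading of mRNA only 4 of these markers had a value. They summed to 49711 to 54586 CPM in Acly-KD and 49001 to 77684 CPM in control, so the groups overlapped. The part of these measures in the own-locus values of the listed genes was not tested. Own-locus reads of all 31 genes per read of the opposite features were 0.186, 0.291 and 0.468 in Acly-KD 1 to 3 and 0.339, 0.409 and 0.332 in control 1 to 3, which gave p = 0.7 in the two-sided exact permutation test.

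**Figure D4:**
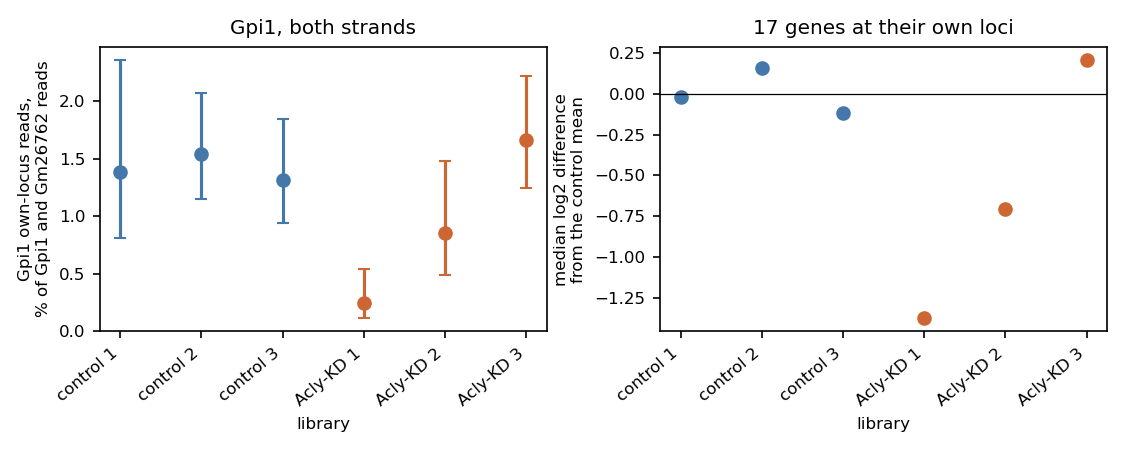
Left, own-locus reads of Gpi1 in percent of all Gpi1 and Gm26762 reads in each library, with 95% Wilson intervals; right, the median log2 difference of 17 genes at their own loci from the control mean. Both panels place Acly-KD 1 lowest, Acly-KD 2 next and Acly-KD 3 highest.

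One library decided whether any listed gene was called. Without Acly-KD 3 the test called 3 of 16 listed genes lower at their own loci, where it called 1.53% of 2998 features lower and 0.767% higher. The 3 were Eno3 at -2.40 (adjusted p = 0.0116 in edgeR), Tpi1 at -1.69 (adjusted p = 0.0300 in edgeR) and Ldhb at -1.48 (adjusted p = 0.0479 in edgeR). With Acly-KD 1 and 2 left out instead, the median of the 19 genes tested was 0.18 and 0 of them were called at their own loci. In the reading of mRNA Gpi1 stayed between -0.065 and 0.058 over all 18 alternatives run.

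**Figure D5:**
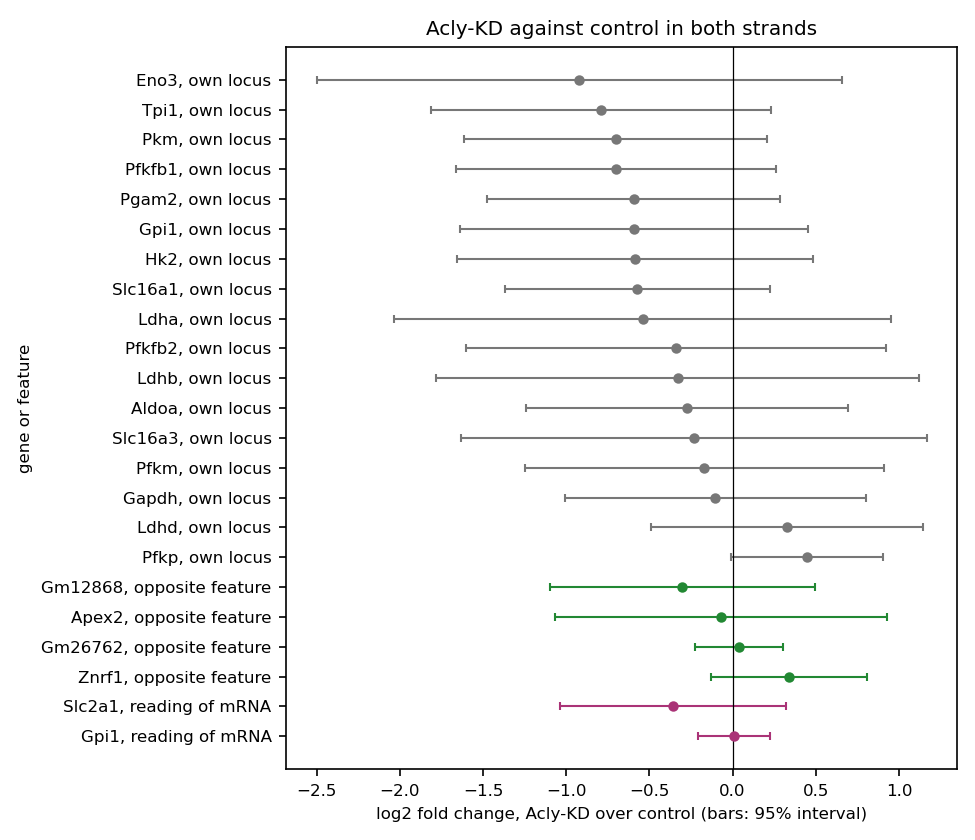
Log2 fold change, Acly-KD over control, with 95% intervals, for 17 genes at their own loci, 4 features opposite to listed genes and the 2 genes in the reading of mRNA. Every interval includes 0, and those of Gpi1 in the reading of mRNA (-0.21 to 0.23) and of Gm26762 are the narrowest.

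Own-locus levels were compared across genes per length. Divided by exonic length, the mean over the 6 libraries was 76.3 CPM per kb for Aldoa (33.2 to 116), 52.7 for Pgam2 (21.9 to 87.3), 48.1 for Ldhb (11.7 to 86.0), 34.5 for Gapdh (14.1 to 52.0), 32.3 for Ldhd (13.0 to 46.8) and 30.1 for Eno3 (6.18 to 50.3). The ranges of neighbours in this order overlapped. Isoforms of one enzyme were set side by side. Eno3 held 113 reads per kb summed over libraries and Eno1 1.86, Pgam2 202 and Pgam1 4.54, Pfkm 49.4 and Pfkl 2.10, Ldhb 188 and Ldha 12.1, and Slc2a4 18.4 and Slc2a1 1.14. In each of these 5 pairs the first was higher in 6 of 6 libraries. Hk2 was above Hk1 in 5 of 6 libraries, with 14.7 and 4.45 reads per kb. Pfkfb1 was above Pfkfb2, the heart form, in 6 of 6, with 25.6 and 8.27, where Pfkfb2 shares 1262 bases on its own strand with Gm29427. Pfkp, the platelet form, was at 14.6 CPM per kb over the 6 libraries and Pfkm, the muscle form, at 12.3. The reading of mRNA gave the rows of Pfkp, Gapdh and Ldhd to Pitrm1, Iffo1 and Znrf1. The levels above need not describe Pfkp, Gapdh or Ldhd. The isoform pairs were not tested, and own-locus reads are not messenger levels.

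Around the pathway, 54 further genes of glucose storage, pyruvate entry, the pentose phosphate route and glucose sensing were looked up. In the reading of mRNA 10 were tested, edgeR called 0 and 1 had an unadjusted p under 0.05. Of the 10 values 7 lay above zero and 3 below, with a median of 0.06. Over all 1453 genes 49.5% lay below zero, the median was 0.01 and 125 had an unadjusted p under 0.05. As deposited, 13 were tested, edgeR called 0 and 1 had an unadjusted p under 0.05, with 3 above zero and 10 below and a median of -0.41. Over all 2952 features tested as deposited, 54.4% lay below zero, the median was -0.04 and 180 had an unadjusted p under 0.05. The 4 most abundant in either form are given here, with their values in the reading of mRNA, which are counts of features opposite to them. Txnip, an inhibitor of glucose uptake, read 22575, 22409 and 23416 CPM in Acly-KD 1 to 3 and 26848, 29926 and 30690 CPM in control 1 to 3, with groups that did not overlap. It did not pass the test, with a difference of -0.35 on the log2 scale (SE 0.09, adjusted p = 0.0731 in edgeR). Mpc1, a subunit of the mitochondrial pyruvate carrier, read 18414, 19833 and 18752 CPM against 19485, 18058 and 18615 CPM, and its log2 fold change of 0.02 had an interval from -0.17 to 0.21. Gsk3a, a kinase that restrains glycogen synthesis, read 1826, 2028 and 1875 CPM against 1985, 1985 and 1960 CPM, and its log2 fold change of -0.05 had a 95% interval from -0.30 to 0.20. Pgm1, a phosphoglucomutase gene, read 1757, 2028 and 2156 CPM against 1608, 1832 and 2061 CPM, and its log2 fold change of 0.10 had an interval from -0.17 to 0.38. Of the 4, Txnip alone had groups apart, which 14.7% of all genes did. Its own-locus row, at 16.9, 19.5 and 38.7 CPM in Acly-KD 1 to 3 and 58.3, 48.5 and 17.3 CPM in control 1 to 3, overlapped.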

How the data were processed

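Poly-A RNA was sequenced as paired ends from libraries that, per the labels, keep strand. The submitters' processing notes list FastQC, TopHat2, SAMtools, HTSeq, DESeq2 (no versions) and mm10; not given in the sources used here is how HTSeq treated strand. The authors deposited whole-number counts per gene, without normalization. Entries that name no gene (97.4% to 97.7% of a library) were left out. No library repeated another of its group (chi-square per degree of freedom 3.43 to 10.1).

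Genes were placed with GENCODE M21 (mm10), which matched 45143 of 46078 identifiers. Testing used edgeR 4.0.16 (R 4.3.3) with TMM, filterByExpr (minimum count 10), robust quasi-likelihood and Benjamini-Hochberg adjustment over all rows at 0.05. In the reading of mRNA, a nuclear feature's counts went to the gene that held 80% or more of the overlap on its other strand, with 50 or more shared bases, if that gene had fewer counts of its own or no row. Members and lists were chosen with earlier results of these data known. Listed genes got full statistics where they passed the test, where groups did not overlap, or where the mean was at least 50 CPM. The floor for 0 reads was 3 counts. The edgeR fit was also run on counts simulated from both forms of the data, but the alternatives were not. Alternatives used DESeq2 1.42.0, limma 3.58.1, other scalings, filters and rules of reading, a replicate block, and libraries left out.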

Additional observations from a re-analysis of the deposited data

How the results depend on the processing

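Listed genes were called at their own loci only without Acly-KD 3 (0 to 3 lower and 0 higher over single libraries left out), and in the reading of mRNA under no setting run; their opposite features only with Acly-KD 1 and Acly-KD 2 both left out (1 lower). With those left out, the own-locus median was 0.18, 10 features were called higher and 26 lower as deposited, and 1 higher and 1 lower in the reading of mRNA. With single libraries left out, features called as deposited ranged from 0 to 23 higher and 0 to 46 lower, and in the reading of mRNA from 0 to 8 higher and 1 to 12 lower, against 3 and 3 with all libraries. Without a filter, 2 higher and 1 lower were called as deposited and 12 and 18 in the reading of mRNA; with a minimum count of 30, 0 and 0 there. Genes called higher in the reading of mRNA numbered 0 when scaled to all uniquely aligned reads, 1 with DESeq2's test and 1 with 200 bases shared, where Slc2a1 had no value. With the replicate block 5 were higher and 7 lower. Deviations from the group means correlated at r = -0.18 to -0.02 between same-numbered libraries and at -0.11 to 0.18 between the others. So few values cannot show whether the numbers pair libraries. The causes were not tested.

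Signs turned where values were near zero or 1 library weighed. With single libraries left out, log2 fold changes ranged from -0.88 to 0.075 for Aldoa, -0.61 to 0.28 for Gapdh, -1.48 to 0.13 for Ldhb, -0.54 to 0.37 for Apex2, -0.58 to 0.091 for Gm12868, -0.0058 to 0.13 for Gm26762, and in the reading of mRNA from -0.59 to 0.0095 for Slc2a1 and -0.010 to 0.039 for Gpi1. With Acly-KD 1 and 2 both left out they were 0.47 for Aldoa, 0.090 for Tpi1, 0.54 for Gapdh, 0.18 for Eno3, 0.65 for Ldhb and -0.033 for Gm26762. Apex2 was at 0.14 with limma-voom and 0.037 without a filter, Gm26762 at -0.024 with library totals, and scaled to all uniquely aligned reads Gm26762 and Gpi1 were both at -0.065. Depth limits many genes: 14 of 31 were below the filter.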
